A study of Mus musculus with 12 samples.

Results

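The genes described here are 9 members of the bone morphogenetic protein (BMP) pathway and its outputs, Id1, Id2, Id3, Id4, Smad6, Smad7, Smad9, Bmp4 and Bambi, taken by name from the 24062 genes of an RNA-Seq count table of mouse embryonic fibroblasts (MEFs). The 9 genes were chosen by pathway with earlier measured values of the same libraries known. Which of those values led to the choice is not recorded, so they are treated as selected on their response to starvation, in which they stood out most, and that response is given as a description. Counts of these genes past the threshold of the fit to all genes are part of that description, and no p-value is attached to their starvation response. The study asked how BRUCE, the giant ubiquitin ligase and IAP family protein encoded by Birc6, acts in autophagy. MEFs expressed either shRenilla, a control short hairpin RNA against a luciferase that mice lack, or shBruce#1, a hairpin against Birc6, and each line was kept in fully supplemented medium (FM) or starved (Starv) for 2 h without serum and amino acids. The 4 conditions, shRenilla FM, shRenilla Starv, shBruce FM and shBruce Starv, had 3 libraries each. Each hairpin was represented by a single line, so an effect of BRUCE and another difference between the lines cannot be told apart. Serum and amino acids were withdrawn together, so their effects and those of any other difference between the media cannot be told apart either. The labels number the replicates but do not say that they came from separate cultures, so every p-value measures only the spread between these libraries, which may be technical.

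BMP ligands such as BMP4 bind pairs of type I and type II receptors, which phosphorylate SMAD1, SMAD5 and SMAD9. These join SMAD4, enter the nucleus and activate target genes, among which the Id genes are the classical immediate readout. ID proteins hold a helix-loop-helix but no DNA-binding region, and by pairing with E-proteins they keep those from binding E-boxes and so restrain differentiation in many cell types. SMAD6 and SMAD7 are inhibitory SMADs, themselves targets of the pathway, that feed back on the receptors, and BAMBI is a decoy receptor without a kinase. Serum itself carries BMP activity and also induces Id genes, which were first studied in fibroblasts and muscle precursors.

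Library depth ran from 7717265 counts in shBruce Starv replicate 1 to 18510540 counts in shRenilla FM replicate 1. Birc6, the targeted gene, had 4339 ± 942 normalized counts in shRenilla FM and 1287 ± 93.7 in shBruce FM (SD, n = 3), where normalized counts are counts scaled to a common effective library size. In Starv it had 4086 ± 1125 in shRenilla and 1035 ± 288 in shBruce MEFs, and the 2 lines did not overlap in either medium. The difference passed edgeR's quasi-likelihood test with Benjamini-Hochberg adjustment in Starv (log2 fold change -1.98, adjusted p = 0.0186) but not in FM (-1.75, adjusted p = 0.0627), where 0 of 12154 genes passed, 1750 had an unadjusted p under 0.05, and DESeq2 called 98. Of 9 fibroblast markers, 8 averaged at least 50 normalized counts, the exception being Thy1 with 0 to 3 counts in any library. All 5 endothelial, 4 epithelial and 3 skeletal muscle markers lay below 50, while Cd68 of 4 haematopoietic and Sox2 and Tubb3 of 4 neural markers lay above it. The summed neural markers ranged from 547 to 579 in shRenilla FM, 405 to 465 in shRenilla Starv, 561 to 940 in shBruce FM and 498 to 720 in shBruce Starv, and their part in the results was not tested.

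Promoter windows from RefSeq, from 250 bases before to 50 bases after the start of a gene on GRCm38.p6, matched 6 of the 9 genes, namely Id2, Id3, Id4, Smad6, Smad9 and Bmp4. A pair of stretches is shown because their genes moved in opposite directions under starvation, Id2 downwards and Smad9 upwards. Both are cut so that they hold no annotated exon. The Id2 stretch is chr12:25096254-25096342 on the minus strand, from 250 to 162 bases before the RefSeq start, within the span of the longer GENCODE gene model but outside its exons. Capitals mark GGCGCC, a GC-rich element that SMAD1 and SMAD5 can bind, and CAGCTG, an E-box.
Id2: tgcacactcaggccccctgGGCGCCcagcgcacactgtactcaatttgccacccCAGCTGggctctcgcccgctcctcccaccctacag
The Smad9 stretch is chr3:54755332-54755454 on the plus strand, from 250 to 128 bases before the start and upstream of the gene. Capitals mark CAGGTG, an E-box, and AGAC, the SMAD box GTCT read on the other strand.
Smad9: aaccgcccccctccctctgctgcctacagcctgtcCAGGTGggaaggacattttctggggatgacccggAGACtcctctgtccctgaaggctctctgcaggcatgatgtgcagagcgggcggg
Motifs were searched on both strands of the 250 bases before the start, and the shares given here refer to that part of each window. GGCGCC was in 3 of the 6 windows, at 231 to 226 bases before the start in Id2, 148 to 143 in Id4 and 51 to 46 in Smad9, against 9.59% of all 32851 windows. The 4 letters GTCT were in 5 of the 6 windows but also in 82.9% of all windows, and CANNTG was in 3 of the 6 (Id2, Smad9 and Bmp4) against 66.2%. CCAAT was in the windows of Id2 and Id4, against 33.8% of all windows, and TATAAA was in 0 of the 6 against 12.4%. These matches describe letters in a window and do not separate the genes that fell from Smad9, which rose. GGCGCC was in the windows of Id2, which fell, and of Smad9, but not in that of Id3, which also fell. The Smad9 match lies outside the stretch shown.

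All 9 genes passed the filter on low counts and were among the 12154 genes fitted. In shRenilla MEFs 6 of them were among the genes with an adjusted p under 0.05 in Starv against FM, with Id1, Id2, Id3, Smad7 and Bambi lower and Smad9 higher. Over all genes fitted, 7.27% were called lower and 9.69% higher in that comparison. In shBruce MEFs Id1, Id2, Id3 and Smad7 were lower and Smad9 higher, against 10.6% of all genes called lower and 12.4% higher. Because this response is taken to be what chose the genes, the threshold is no valid test for them and nothing is read from these counts. With only the 6 libraries of a line fitted, Bmp4 (log2 fold change -0.39) joined the genes counted in shRenilla MEFs, which made 7, and Smad9 (1.49) left those counted in shBruce MEFs. Over all genes, those fits called 41.9% in shRenilla and 8.11% in shBruce MEFs. The median log2 fold change of the 9 genes was -0.74 in shRenilla and -0.44 in shBruce MEFs, beside -0.01 and 0.02 over all genes fitted. Libraries in FM and Starv did not overlap for 7 lower and 1 higher of the 9 genes in shRenilla MEFs (26.5% and 25.9% of all genes) and for 4 lower and 1 higher in shBruce MEFs (14.8% and 16.2%).

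**Figure D1:**
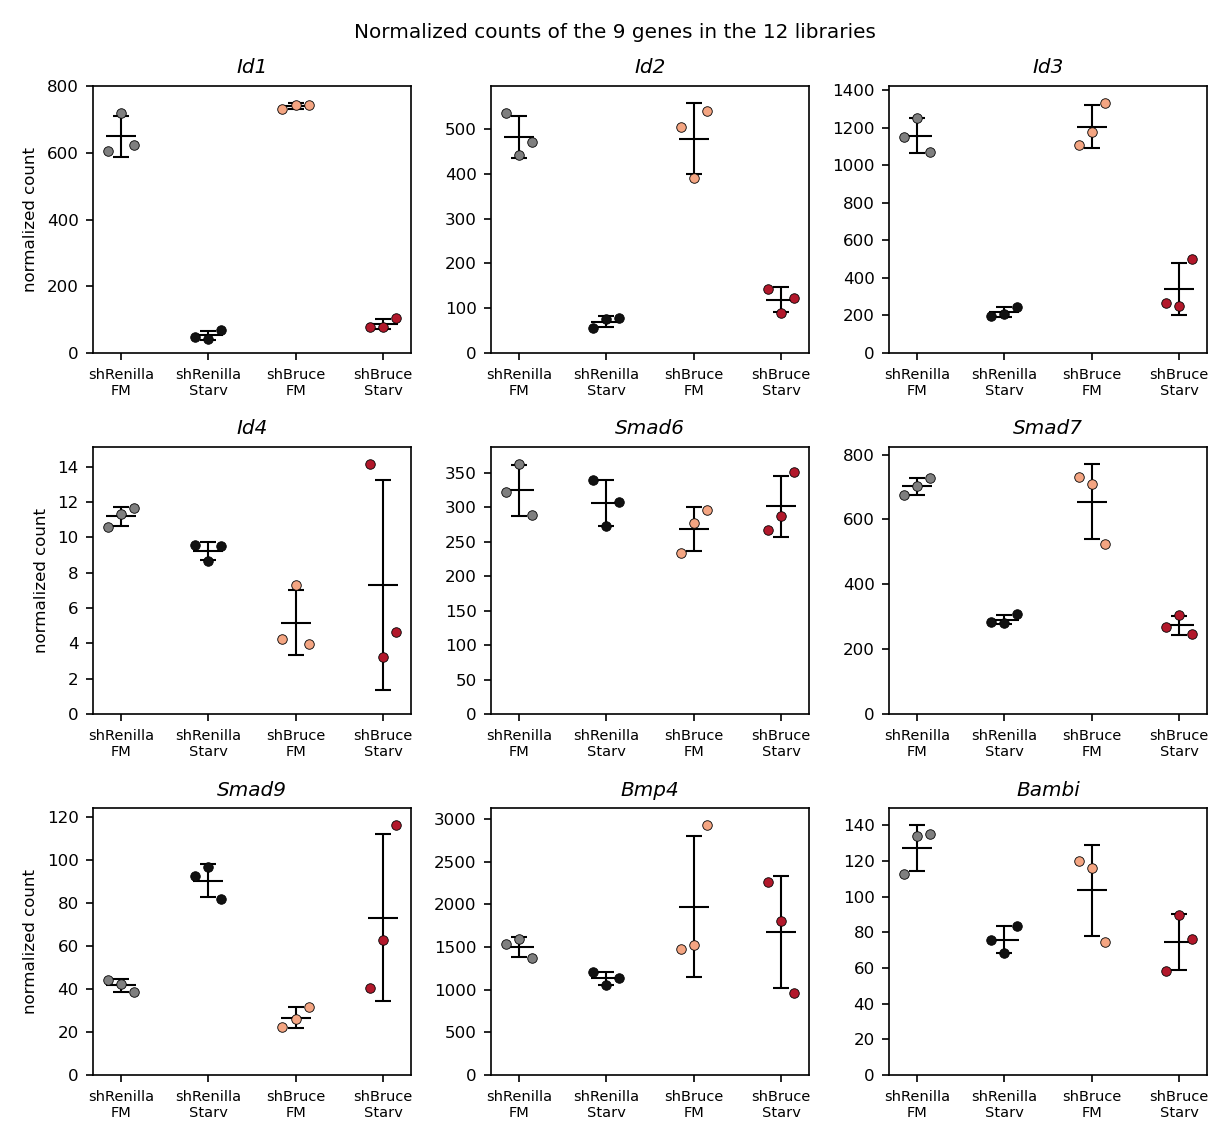
Normalized counts (linear axis from 0, a scale of its own for each gene) of the 9 genes in each of the 12 libraries, with the 3 libraries of a condition as points and their mean ± SD as bars. Within each line Id1, Id2, Id3 and Smad7 were lower in every Starv library than in any FM library, Smad9 was higher, and Id4 stayed below 15 normalized counts throughout.

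Id1, an inhibitor of E-proteins and the most direct BMP target of the family, showed the deepest fall of the 9 genes. Its normalized counts in the 3 libraries were 604.8, 718.6 and 625.5 in shRenilla FM and 49.5, 41.5 and 68.5 in shRenilla Starv. In shBruce MEFs they were 730.6, 745.4 and 744.8 in FM and 78.7, 79.0 and 105.9 in Starv. The FM and Starv libraries were thus far apart in both lines, and the 3 shBruce FM libraries were closely spaced. The log2 fold change was -3.61 (95% confidence interval -4.02 to -3.21) in shRenilla MEFs, which left 8.17% of the FM level, a 12.2-fold decrease and the fifth lowest change of all 12154 genes. In shBruce MEFs it was -3.06 (-3.45 to -2.66), which left 12.0%, an 8.33-fold decrease that ranked 19 from the lowest.

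Id2, which besides E-proteins binds the retinoblastoma protein, had 534.6, 442.3 and 470.4 normalized counts in shRenilla FM and 55.9, 75.3 and 79.0 in shRenilla Starv. In shBruce MEFs the counts were 504.4, 390.5 and 540.5 in FM and 143.3, 88.6 and 123.5 in Starv. All Starv libraries lay below all FM libraries. The log2 fold change was -2.79 (-3.23 to -2.35) in shRenilla MEFs, a 6.90-fold decrease to 14.5% of FM, and -2.03 (-2.46 to -1.60) in shBruce MEFs, a 4.09-fold decrease to 24.5%.

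Id3, often co-expressed with Id1, was the most abundant of the family, with 1149.2, 1251.4 and 1068.1 normalized counts in shRenilla FM and 198.7, 206.8 and 246.6 in shRenilla Starv. In shBruce MEFs the counts were 1105.4, 1177.7 and 1327.9 in FM and 268.5, 249.7 and 500.6 in Starv. Again no Starv library reached an FM library, although shBruce Starv replicate 3 was the highest of the starved libraries. The log2 fold change was -2.41 (-2.90 to -1.92) in shRenilla MEFs, a 5.32-fold decrease to 18.8%, and -1.81 (-2.29 to -1.33) in shBruce MEFs, a 3.51-fold decrease to 28.5%.

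The fall was unequal within the family. The ratio of Id1 to Id3 counts, which needs no scaling between libraries, was 0.562 ± 0.0315 in shRenilla FM and 0.243 ± 0.0390 in shRenilla Starv, and 0.618 ± 0.0516 in shBruce FM and 0.274 ± 0.0550 in shBruce Starv (SD, n = 3). Starved and fed libraries did not overlap in this ratio in either line. The ratio of Id2 to Id3 moved less, from 0.420 ± 0.0587 to 0.322 ± 0.0415 in shRenilla MEFs and from 0.398 ± 0.0628 to 0.378 ± 0.145 in shBruce MEFs, with overlapping libraries in both lines. In bulk RNA, fewer cells that express a gene and less RNA of it per cell cannot be told apart.

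Id4, the member that in some settings opposes the other ID proteins, was near the limit of detection, with 3 to 13 reads in any library. Its normalized counts averaged 11.2 ± 0.530 in shRenilla FM, 9.25 ± 0.517 in shRenilla Starv, 5.18 ± 1.86 in shBruce FM and 7.33 ± 5.94 in shBruce Starv. The highest value, 14.1 normalized counts in shBruce Starv replicate 1, came from 7 reads in the shallowest library. A change like that of the other Id genes was not seen, with log2 fold changes under starvation of -0.27 (-1.11 to 0.57) in shRenilla and 0.26 (-0.88 to 1.39) in shBruce MEFs.

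The inhibitory SMADs differed from each other. Smad7, which recruits ubiquitin ligases to type I receptors of both the BMP and TGF-beta branches, had 674.2, 704.5 and 726.7 normalized counts in shRenilla FM and 282.5, 282.1 and 307.5 in shRenilla Starv. In shBruce MEFs it had 731.6, 709.8 and 523.6 in FM and 268.5, 304.1 and 247.1 in Starv. The fall was alike in size in both lines, to 41.4% of FM in shRenilla (log2 fold change -1.27, -1.58 to -0.96) and to 41.7% in shBruce MEFs (-1.26, -1.57 to -0.95). Smad6, the inhibitory SMAD most tied to the BMP branch, kept overlapping values, with means of 324 ± 36.8 in shRenilla FM, 306 ± 33.3 in shRenilla Starv, 269 ± 31.8 in shBruce FM and 302 ± 44.1 in shBruce Starv. Its log2 fold changes were -0.08 (-0.41 to 0.25) in shRenilla and 0.17 (-0.16 to 0.51) in shBruce MEFs. The ratio of Smad7 to Smad6 counts went from 2.19 ± 0.298 to 0.956 ± 0.108 in shRenilla and from 2.49 ± 0.683 to 0.924 ± 0.192 in shBruce MEFs.

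Smad9, a receptor-regulated SMAD that is also induced by the pathway and can dampen it, was the only one of the 9 genes whose Starv libraries all lay above the FM libraries of the same line. It had 44.1, 42.4 and 38.5 normalized counts in shRenilla FM and 92.6, 96.9 and 81.9 in shRenilla Starv, and 22.3, 26.2 and 31.7 in shBruce FM and 40.4, 63.0 and 116.1 in shBruce Starv. The shBruce Starv libraries were widely spread, and the lowest of them lay below 2 of the shRenilla FM libraries. The log2 fold change was 1.12 (0.49 to 1.74), a 2.17-fold increase, in shRenilla MEFs and 1.50 (0.81 to 2.18), a 2.82-fold increase, in shBruce MEFs. Its counts relative to Smad7 rose from 0.0595 ± 0.00621 to 0.313 ± 0.0408 and from 0.0427 ± 0.0159 to 0.276 ± 0.171. In shRenilla MEFs Smad9 was not among the genes counted when shRenilla FM replicate 1, 2 or 3 or shRenilla Starv replicate 1 or 2 was left out, although its log2 fold change stayed at 1.06 to 1.16. In shBruce MEFs the log2 fold change was 0.99 without shBruce Starv replicate 3.

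Bmp4, the ligand of the set, was abundant and changed less than the Id genes. Its normalized counts were 1539.4, 1593.7 and 1368.3 in shRenilla FM and 1211.4, 1052.3 and 1131.9 in shRenilla Starv, so that the Starv libraries lay below the FM libraries by a log2 fold change of -0.41 (-1.03 to 0.21). In shBruce MEFs they were 1471.7, 1519.0 and 2922.6 in FM and 2258.8, 1800.0 and 963.2 in Starv, with a log2 fold change of -0.24 (-0.86 to 0.38). These shBruce libraries overlapped and spread over a wider range than those of shRenilla MEFs. The log2 fold change was 0.15 when shBruce FM replicate 3 was left out and 0.04 when shBruce Starv replicate 3 was.

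Bambi, the decoy receptor, had 112.6, 133.9 and 135.3 normalized counts in shRenilla FM and 75.8, 68.4 and 83.8 in shRenilla Starv, a log2 fold change of -0.74 (-1.19 to -0.30). In shBruce MEFs it had 120.0, 116.2 and 74.4 in FM and 58.5, 89.6 and 76.2 in Starv, where the libraries overlapped and the log2 fold change was -0.44 (-0.91 to 0.02). Bambi was not among the genes counted in shRenilla MEFs without shRenilla FM replicate 2 or 3 or shRenilla Starv replicate 1 or 2 (-0.74 to -0.68), and in shBruce MEFs it was among them without shBruce FM replicate 3 (-0.64).

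**Figure D2:**
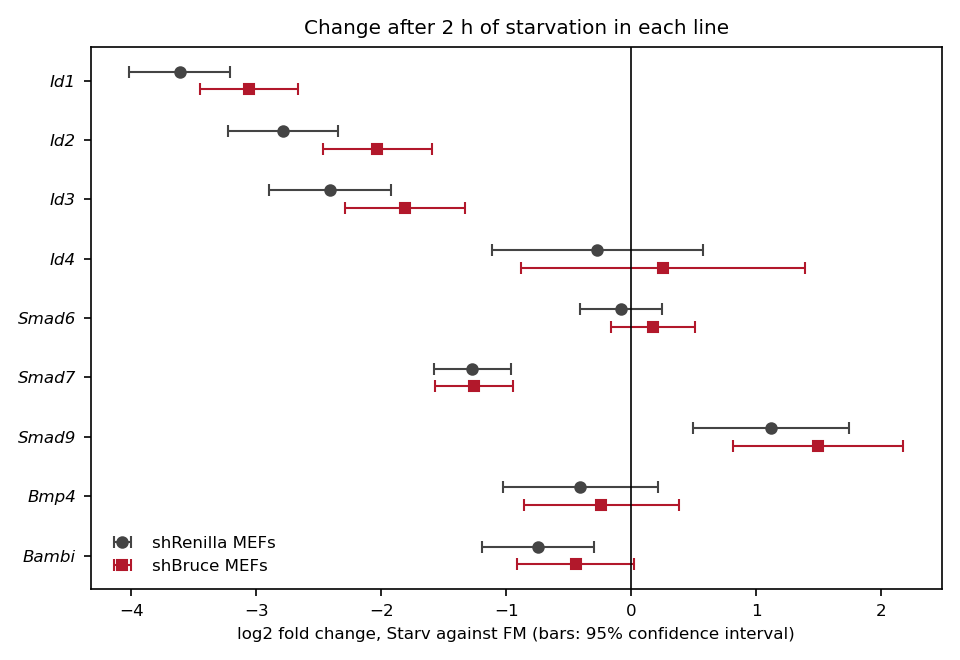
Log2 fold change of Starv against FM (horizontal axis) for each of the 9 genes in shRenilla (circles) and shBruce MEFs (squares), with 95% confidence intervals from the fit. Id1, Id2, Id3 and Smad7 lie left of 0 and Smad9 right of 0 with their whole intervals in both lines, while those of Id4, Smad6 and Bmp4 span 0. The genes are taken to be chosen on this response, so the intervals describe it and are no test of it.

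Per kilobase of the longest annotated transcript, the order of the levels changed with starvation. In shRenilla FM Id3 was highest with 905 ± 71.9 normalized counts per kilobase, then Bmp4 with 727 ± 57.0, Id1 with 560 ± 52.3, Id2 with 245 ± 24.0, Smad7 with 164 ± 6.16, Smad6 with 109 ± 12.4, Bambi with 25.1 ± 2.50, Smad9 with 7.76 ± 0.531 and Id4 with 2.91 ± 0.138. No neighbours in this order overlapped across the 3 libraries. In shRenilla Starv the order was Bmp4 with 548 ± 38.5, Id3 with 170 ± 20.0, Smad6 with 103 ± 11.2, Smad7 with 67.9 ± 3.40, Id1 with 45.8 ± 12.0, Id2 with 35.6 ± 6.31, Smad9 with 16.9 ± 1.44, Bambi with 15.0 ± 1.52 and, as in FM, Id4 in the last place. Here Id1 and Id2 overlapped, as did Smad9 and Bambi. In shBruce MEFs Bmp4 and Id3 led in FM with 955 ± 399 and 942 ± 88.8 and overlapped, whereas in Starv Bmp4 led with 811 ± 318 and Id3 had 266 ± 109. In shBruce Starv Id1 (75.7 ± 13.5), Smad7 (63.9 ± 6.73) and Id2 (60.2 ± 14.1) followed Smad6 (101 ± 14.9), and each of these 4 overlapped its neighbour.

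The genes whose log2 normalized counts followed Id1 most closely over the 12 libraries, among 10364 fitted genes with a mean of at least 50, were Apln (Pearson r = 0.990), Mlx (0.987), Id3 (0.987), Vasn (0.985) and Gprc5a (0.983). Id2 ranked 11 with 0.979 and Smad7 ranked 101 with 0.947. The 12 libraries share the contrast of FM and Starv, so these coefficients are a description and no test is attached to them. Apln, which encodes the peptide ligand apelin, averaged 818 ± 29.9 normalized counts in shRenilla FM, 258 ± 9.49 in shRenilla Starv, 873 ± 89.9 in shBruce FM and 291 ± 16.2 in shBruce Starv. At the other end, Smad9 had an r of -0.83 with Id1, and Smad6 had -0.09.

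Between the lines, shBruce and shRenilla MEFs were compared in each medium. These comparisons use the same libraries as the starvation response, so they are not independent of how the genes were chosen. In FM 0 of the 9 genes passed edgeR's test, as did 0.0% of all genes, and DESeq2 and limma-voom called 0 of the 9. Of the 9, 1 (Id4) had an unadjusted p under 0.05, beside 1750 of all 12154 genes. Id1 had a log2 fold change of shBruce against shRenilla of 0.19 (-0.16 to 0.53), Id2 of -0.01 (-0.41 to 0.38) and Id3 of 0.06 (-0.40 to 0.51). These intervals hold no difference as large as the starvation response of any of the 3 genes. Smad6 (-0.27, -0.60 to 0.06), Smad7 (-0.10, -0.40 to 0.20), Smad9 (-0.64, -1.33 to 0.06), Bmp4 (0.39, -0.23 to 1.01) and Bambi (-0.30, -0.74 to 0.15) likewise had intervals that included 0. Id4 had the lowest value, -1.10 (-2.06 to -0.13), with 4 to 7 reads in shBruce FM against 12 to 13 in shRenilla FM, and an adjusted p of 0.316. The Bmp4 value rested on shBruce FM replicate 3, without which it was -0.01. The 3 shBruce FM libraries lay above the 3 shRenilla FM libraries for Id1 and below them for Id4 and Smad9. These 1 higher and 2 lower of the 9 genes stood beside 16.4% and 17.0% of all genes.

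After starvation the residual Id transcripts were higher in shBruce than in shRenilla MEFs. The log2 fold change was 0.74 for Id1 (SE 0.19, adjusted p = 0.0256), 0.74 for Id2 (SE 0.21, adjusted p = 0.0290) and 0.66 for Id3 (SE 0.22, adjusted p = 0.0486), and the 3 shBruce Starv libraries lay above the 3 shRenilla Starv libraries for each gene. These 3 of 9 genes stood against 12.8% of all genes called higher in this comparison and 16.4% whose libraries did not overlap in that direction. In an exact two-sided permutation test on normalized counts each of them gave p = 0.1, the smallest value that 3 against 3 libraries allow. The other 6 genes did not pass, with Smad6 at -0.02 (-0.35 to 0.32), Smad7 at -0.09 (-0.40 to 0.22), Smad9 at -0.26 (-0.86 to 0.35), Bmp4 at 0.56 (-0.06 to 1.18), Id4 at -0.57 (-1.57 to 0.43) and Bambi with means of 74.8 ± 15.6 in shBruce and 76.0 ± 7.71 normalized counts in shRenilla MEFs.

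This difference depended on the processing. In each library the counts trended with transcript length, by a log2 change per doubling of length of 0.215, 0.209 and 0.0336 in the 3 shRenilla Starv libraries and of -0.174, -0.234 and 0.0389 in the 3 shBruce Starv libraries. Id1 and Id3 are short, with longest transcripts of 1160 and 1278 bases against a median of 3413 over 12050 genes, while that of Id2 has 1969 bases. With the trends on length and GC content removed, the log2 fold change was 0.30 for Id1 (adjusted p = 0.372), 0.66 for Id2 (adjusted p = 0.0585) and 0.24 for Id3 (adjusted p = 0.614), and 0 of the 9 genes and 8.23% of all genes passed. With limma-voom Id3 was at 0.61 and did not pass (adjusted p = 0.0649), while Id1 and Id2 did. None of the 3 Id genes passed without shRenilla Starv replicate 1 (log2 fold changes 0.69, 0.60 and 0.59 for Id1, Id2 and Id3), without shRenilla Starv replicate 2 (0.59, 0.80 and 0.62) or without shBruce Starv replicate 2 (0.83, 0.92 and 0.84), and Id1 alone passed without shBruce Starv replicate 1, where Id2 was at 0.59 and Id3 at 0.78. Without shBruce Starv replicate 3 Id3 fell to 0.25 and lost its call, while Smad9 (-0.76, adjusted p = 0.0142) and Bmp4 (0.84, adjusted p = 0.0126) passed. Id3 also lost its call when any other single library was left out. The count over all genes dropped as well, to 0 when shRenilla Starv replicate 1 or 2 was left out. Among shBruce Starv libraries it dropped to 15 (0.122%) for replicate 2 and 4.68% for replicate 1. In these fits the loss is not particular to the Id genes. Without shBruce Starv replicate 3 or shRenilla Starv replicate 3, where Id3 also lost its call, 46.7% and 23.9% of all genes passed. The fit to all 12 libraries called 23.9%, so there the loss of Id3 came without a drop over all genes.

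**Figure D3:**
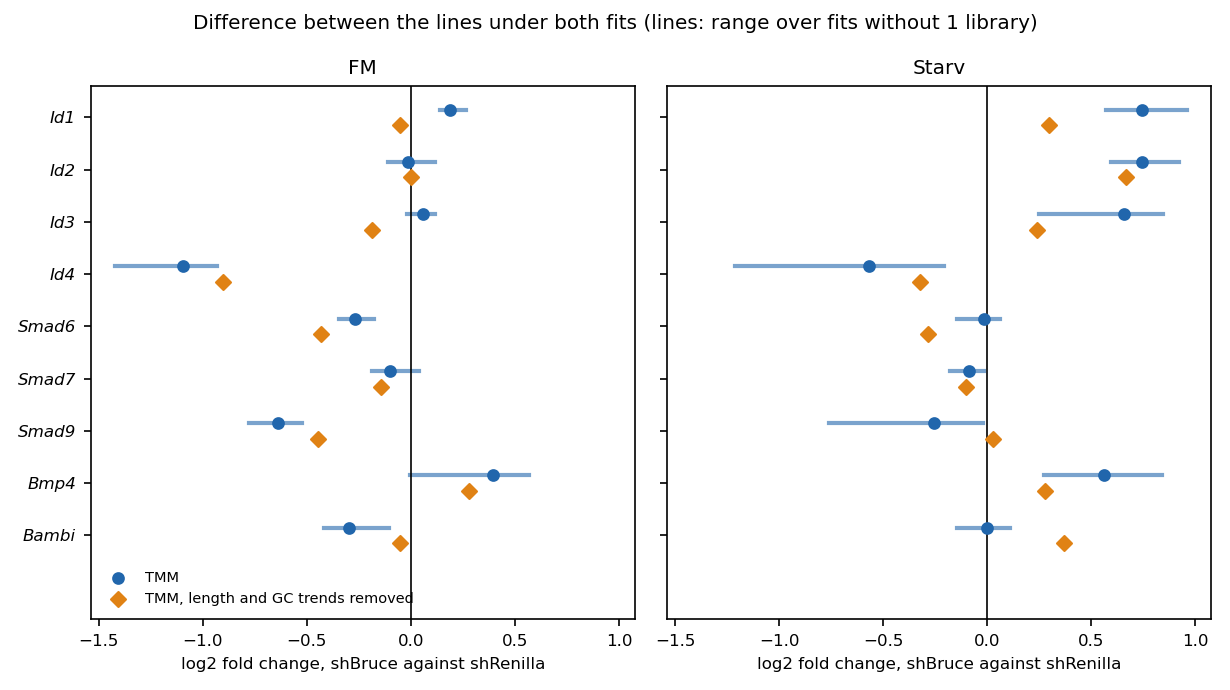
Difference between the lines (shBruce minus shRenilla, log2 scale, horizontal axis) for the 9 genes in FM (left) and Starv (right), from the fit on TMM-scaled counts (circles) and with trends on transcript length and GC content removed (diamonds). Lines span the values of the TMM fit when 1 library is left out, and in Starv the diamonds of Id1 and Id3 lie nearer to 0 than their circles, at 0.30 and 0.24 against 0.74 and 0.66.

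The starvation response itself was compared between the lines by the interaction term, the log2 fold change in shBruce minus that in shRenilla MEFs. This term is built from the response taken to have chosen the genes, so its intervals and p-values are not independent of that choice. The term was 0.56 for Id1 (0.02 to 1.10), 0.76 for Id2 (0.15 to 1.36) and 0.60 for Id3 (-0.06 to 1.26), a smaller fall in shBruce MEFs for each. The adjusted p was 0.806 for all 3, and 0 of the 9 genes and 0.0% of all genes passed edgeR's test. Id1 and Id2 were the 2 with an unadjusted p under 0.05, beside 474 of all 12154 genes. DESeq2 and limma-voom called 0 of the 9. A difference between the lines in the Id response was thus not established, nor was a like response, since the intervals are wide. For Smad7 the term was 0.01 (-0.43 to 0.45), for Smad6 0.25 (-0.22 to 0.72), for Smad9 0.38 (-0.54 to 1.30), for Bambi 0.30 (-0.35 to 0.94) and for Bmp4 0.17 (-0.71 to 1.04).

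Around these 9 genes, 89 other genes of the pathway and its neighbours were listed in 7 groups, of which 65 were abundant enough to be fitted. The groups were written from general knowledge of the pathway but with earlier results of the same libraries known. Their counts and p-values may therefore not be independent of that choice. In shRenilla MEFs 2 of the 65 rose and 11 fell under starvation, together 20.0% beside 17.0% of all genes, and in shBruce MEFs 5 rose and 15 fell, together 30.8% beside 23.0%. The median log2 fold change over the 65 genes was -0.08 and -0.07. Of the BMP ligands other than Bmp4, only Bmp2 was fitted, at 356 normalized counts in shRenilla FM and 298 in shRenilla Starv, and it did not pass in either line. Every other listed ligand had at most 29 reads in any library.

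Among 10 fitted receptors and coreceptors, Rgma rose in both lines, beside 9.69% of all genes called higher in shRenilla and 12.4% in shBruce MEFs. This BMP coreceptor went from 92.2 ± 11.1 to 181 ± 8.45 normalized counts in shRenilla (log2 fold change 0.97, adjusted p = 0.00599) and from 81.9 ± 17.3 to 180 ± 48.4 in shBruce MEFs (1.14, adjusted p = 0.00217). In shBruce MEFs the type II receptor gene Acvr2b rose from 8.48 ± 5.35 to 33.2 ± 20.3 (1.82, adjusted p = 0.0187) and Rgmb, a relative of Rgma, fell from 285 ± 18.4 to 191 ± 65.3 (-0.56, adjusted p = 0.0477). Without passing, Acvr2b (1.46, adjusted p = 0.0610) and Rgmb (-0.41, adjusted p = 0.140) moved the same way in shRenilla MEFs. Their FM and Starv libraries did not overlap there, and Acvr2b had only 3 to 32 reads in any library. Of the 12 SMAD proteins and regulators outside the 9 genes, 0 passed in shRenilla MEFs, beside 17.0% of all genes. At an unadjusted p under 0.05 there were 3 of the 12, beside 3838 of all 12154 genes. In shBruce MEFs 1 of the 12 was called higher and 2 lower, beside 12.4% and 10.6% of all genes. There Smad4, the common partner SMAD, rose by a log2 fold change of 0.42 (adjusted p = 0.0386). The ubiquitin ligase genes Smurf1 (-0.52, adjusted p = 0.0150) and Smurf2 (-0.53, adjusted p = 0.0173) fell in the same line. In shRenilla MEFs Smad4 (0.30), Smurf1 (-0.32) and Smurf2 (-0.29) changed in the same direction without passing.

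Of 12 fitted extracellular antagonists and modulators, 2 passed in shRenilla and 4 in shBruce MEFs, beside 17.0% and 23.0% of all genes, with Fst and Dand5 in both. Fst, which encodes the activin and BMP antagonist follistatin, fell from 471 ± 6.50 to 136 ± 14.1 normalized counts in shRenilla (log2 fold change -1.79, adjusted p = 0.000562) and from 326 ± 43.4 to 179 ± 94.5 in shBruce MEFs (-0.84, adjusted p = 0.0348), where FM and Starv libraries overlapped. Dand5, of the DAN family of antagonists, rose from 59.5 ± 9.02 to 99.4 ± 13.5 (0.74, adjusted p = 0.0290) and from 67.5 ± 19.7 to 167 ± 15.7 (1.30, adjusted p = 0.000925). In shBruce MEFs Nbl1, another DAN family member, rose (0.53, adjusted p = 0.00940), and Bmp1, a metalloprotease that cleaves chordin, fell (-0.44, adjusted p = 0.0137). Nbl1 (-0.08) and Bmp1 (-0.14) did not pass in shRenilla MEFs.

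Of 12 fitted BMP target genes outside the 9, 3 fell in shRenilla and 1 in shBruce MEFs, beside 7.27% and 10.6% of all genes called lower, and 0 rose. In shBruce MEFs the share is thus near that of all genes. Dlx2, a homeobox gene, fell in both, from 223 ± 13.5 to 69.7 ± 2.89 normalized counts (log2 fold change -1.68, adjusted p = 5.38e-05) and from 177 ± 15.3 to 49.5 ± 15.4 (-1.79, adjusted p = 4.61e-05). Hes1, a helix-loop-helix repressor best known as a Notch target, fell in shRenilla MEFs from 357 ± 5.85 to 148 ± 14.8 (-1.27, adjusted p = 0.0153). Msx1, a homeobox repressor, fell there from 179 ± 16.1 to 82.0 ± 23.2 (-1.13, adjusted p = 0.00803). Hes1 (-0.60, adjusted p = 0.190) and Msx1 (-0.46, adjusted p = 0.199) were also lower in shBruce MEFs without passing, with overlapping libraries.

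Genes of the TGF-beta branch, which signals through SMAD2 and SMAD3 and was listed for contrast, were counted in the same way. Of 10 fitted, 3 fell in shRenilla and 5 in shBruce MEFs, beside 7.27% and 10.6% of all genes called lower, and 0 rose. Ctgf, a matricellular protein gene, fell from 10526 ± 832 to 1401 ± 25.7 normalized counts in shRenilla (log2 fold change -2.91, adjusted p = 0.000172) and from 6886 ± 3266 to 681 ± 286 in shBruce MEFs (-3.34, adjusted p = 6.48e-05). Bhlhe40, a helix-loop-helix repressor, fell with log2 fold changes of -0.88 (adjusted p = 0.000579) and -1.10 (adjusted p = 0.000109).

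Of 8 fitted helix-loop-helix partners, relatives and ETS factors that ID proteins can bind, 4 fell in each line, beside 7.27% of all genes called lower in shRenilla and 10.6% in shBruce MEFs, and 0 rose. Twist1, a mesenchymal helix-loop-helix factor, fell from 993 ± 22.0 to 413 ± 20.9 normalized counts in shRenilla (log2 fold change -1.27, adjusted p = 0.000336) and from 1140 ± 353 to 488 ± 22.0 in shBruce MEFs (-1.22, adjusted p = 0.000373). Its relative Twist2 fell by similar values, -1.32 (adjusted p = 0.000271) and -0.98 (adjusted p = 0.00174), and Ets1 fell with -0.72 (adjusted p = 0.00188) and -1.05 (adjusted p = 0.000118).

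**Figure D4:**
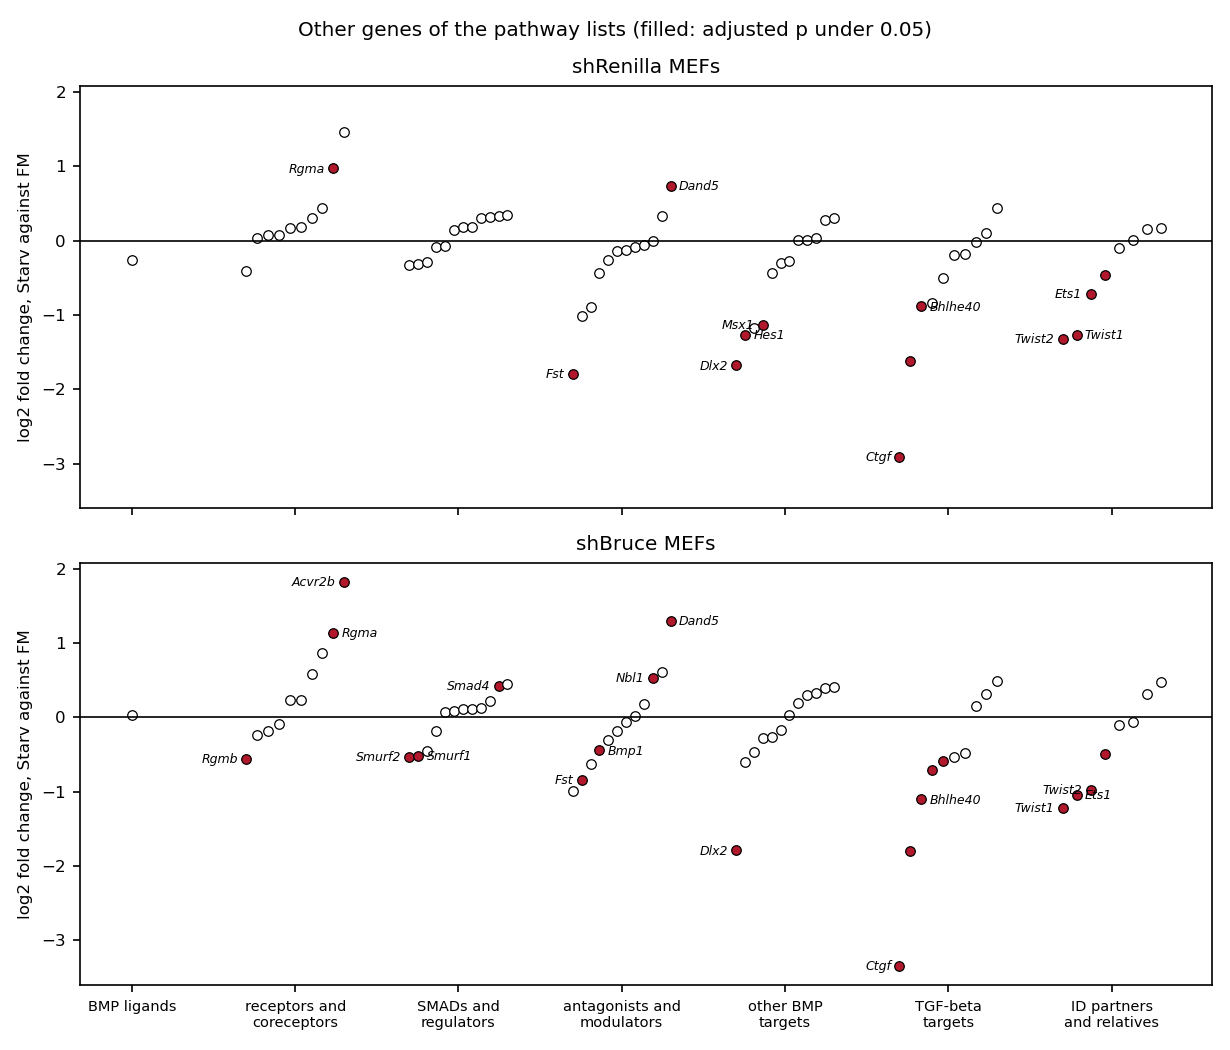
Log2 fold change of Starv against FM (vertical axis) of the 65 fitted genes of the 7 pathway groups (horizontal axis, genes ordered by value within a group) in shRenilla (top) and shBruce MEFs (bottom), with filled points past an adjusted p of 0.05 and most of the largest of these named. Ctgf lies lowest in both panels at -2.91 and -3.34, and Rgma and Dand5 are filled above 0 in both.

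Between the lines, edgeR called 0 of the 65 genes in FM (DESeq2 called 1). At an unadjusted p under 0.05 there were 12 in FM, beside 1750 of all 12154 genes. In Starv edgeR called 18, 9 higher and 9 lower in shBruce MEFs, which is 27.7% beside 23.9% of all genes. The type I receptor gene Bmpr1a was lower in shBruce Starv, with 1624 ± 510 against 2737 ± 299 normalized counts (log2 fold change -0.75, adjusted p = 0.0283), as was the type II receptor gene Bmpr2 with 1137 ± 188 against 2006 ± 470 (-0.82, adjusted p = 0.0277). The ligand gene Bmp2 was higher (0.49, adjusted p = 0.0345). Among SMAD regulators, Skil (-0.74), Smurf2 (-0.64) and Rnf111 (-0.48) were lower, and among antagonists Dand5 (0.74) and Nbl1 (0.50) were higher. Of the BMP targets, Atoh8, a helix-loop-helix gene, had 74.7 ± 26.8 against 20.3 ± 6.36 normalized counts (1.88, adjusted p = 0.0225), and Msx1 (0.91) and Dlx3 (0.83) were also higher, Dlx3 with overlapping libraries. In the TGF-beta group Ctgf was lower (-1.04) and Pmepa1 higher (1.21), and among ID partners the E-protein gene Tcf4 (0.80) and Twist2 (0.60) were higher while the E-protein gene Tcf12 (-0.59) and Ets1 (-0.59) were lower. The libraries of Pmepa1 and Twist2 overlapped between the lines. In FM, without passing, Dlx3 (0.94), Atoh8 (1.15) and Skil (-0.63) differed in the same direction with libraries that did not overlap. Such separation in FM was seen in 16.4% of all genes in the higher and 17.0% in the lower direction. The FM libraries of Bmpr1a, Bmpr2, Dand5, Nbl1, Pmepa1 and Tcf4 overlapped. With the trends on length and GC content removed, 3 of the 65 passed, beside 8.23% of all genes. When shRenilla Starv replicate 1 or 2 was left out, 0 of the listed genes and 0 of all genes passed. Leaving out a shBruce Starv library gave 5 for replicate 1, 1 for replicate 2 and 36 for replicate 3, beside 4.68%, 0.122% and 46.7% of all genes. The interaction called 0 of the 65 genes in edgeR and DESeq2, with 4 at an unadjusted p under 0.05, beside 474 of all 12154 genes.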

How the data were processed

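RNA-Seq was performed on 12 MEF libraries, 3 for each of shRenilla FM, shRenilla Starv, shBruce FM and shBruce Starv, grouped by the titles in the labels. The authors extracted RNA with TRIzol, selected poly(A) transcripts for single-end sequencing, discarded rRNA reads, mapped the rest to mm10 with STAR 2.4.0d and deposited raw read counts per gene from HTSeq 0.5.4p3. The annotation and strand setting are not given in the sources used here. The table holds 24062 symbols, of which 27 had become dates (0.296% of counts).

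Counts were fitted with edgeR 4.0.16 (TMM, filterByExpr, 1 mean per condition over the 12 libraries, quasi-likelihood test, two-sided, Benjamini-Hochberg adjustment over 12154 genes, level 0.05). Confidence intervals are 95%. Normalized counts are counts divided by each library's effective size, itself scaled so that the 12 sizes have a geometric mean of 1, and values per kilobase use the longest transcript in GENCODE M21. The authors used TMM with limma-voom, which was tried here with limma 3.58.1, as were DESeq2 1.42.0, other scalings and filters, a replicate block, removal of trends on length and GC content (natural splines, 4 df), fits to the compared conditions alone and leaving out each library. Methods were tested on simulated data.

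The 9 genes and the lists were chosen with earlier results of these data known. Within each list and comparison, up to 3 higher and 3 lower genes past the threshold with the largest log2 fold change were named (1 of these genes is not reported here), as were the 5 genes most correlated with Id1. Depth of 7717265 to 18510540 counts limits genes such as Id4. Promoter windows came from RefSeq (GRCm38.p6).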

Additional observations from a re-analysis of the deposited data

How the results depend on the processing

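For Id1, Id2, Id3 and Smad7 the log2 fold changes under starvation, which are taken to have chosen the genes and are given as values only, ran over the 22 alternatives from -3.83 to -3.47, -2.88 to -2.64, -2.51 to -2.32 and -1.31 to -1.19 in shRenilla and from -3.23 to -2.97, -2.18 to -1.86, -2.22 to -1.63 and -1.40 to -1.17 in shBruce MEFs. The difference between the lines in Starv, 3 of 9 genes, was 0 with length and GC trends removed (with or without the replicate block), 0 with only the Starv libraries fitted, 0 for changes of at least 2-fold, and 0 to 4 without 1 library.

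Of the 65 pathway genes, 63 could be fitted when only the compared conditions were used, and those called under starvation then numbered 31 in shRenilla (41.9% of all genes called) and 9 in shBruce MEFs (8.11%). Without 1 library they numbered 11 to 21 and 12 to 26, of 65 or 66 fitted. In FM the lines differed in 1 with DESeq2 and 6 with only the FM libraries (5.11% of all genes), and in Starv in 3 with the trends removed (8.23%), 0 with trends and block, 0 with only the Starv libraries and 0 to 36 without 1 library. The causes were not tested.

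Replicate numbers did not pair the libraries, since correlations of deviations between same-numbered libraries ran from -0.42 to 0.31 (median -0.01) and 3 of 12 libraries correlated best with their own number. With the replicate block 6 and 5 of the 9 genes were past the threshold for starvation in shRenilla and shBruce MEFs, beside 14.6% and 20.2% of all genes. Between the lines 0 passed in FM and 2 in Starv, beside 0% and 15.9% of all genes. For the interaction 0 passed, beside 0% of all genes. Id3 between the lines in Starv had a log2 fold change of 0.62 and did not pass.

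Some differences that did not pass changed sign. Between the lines in FM, Id1 was at -0.051 and Id3 at -0.19 with the trends removed (-0.052 and -0.21 with block), Id2 at 0.0072 with upper-quartile scaling, and without 1 library Id2 ranged from -0.11 to 0.11, Id3 from -0.019 to 0.12, Smad7 from -0.19 to 0.038 and Bmp4 from -0.0053 to 0.57. Between the lines in Starv, Smad6 was at 0.0089 with upper-quartile scaling (-0.15 to 0.059 without 1 library), Smad9 at 0.025 with the trends removed, and Bambi at 0.0081 with DESeq2 size factors, 0.0056 with the DESeq2 test, 0.0091 with limma-voom, 0.0074 with at least 10 counts in every library, 0.029 with upper-quartile scaling, 0.37 with the trends removed (0.35 with block) and -0.15 to 0.11 without 1 library. Under starvation in shBruce MEFs, Id4 ranged from -0.39 to 0.62 and Bmp4 from -0.53 to 0.15 without 1 library. The interaction of Bmp4 was at -0.0040 with the trends removed (-0.00059 with block), and without 1 library the interaction ranged from -0.13 to 0.89 for Id4, -0.13 to 0.10 for Smad7, -0.13 to 0.60 for Smad9 and -0.14 to 0.56 for Bmp4.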
